A study of Mus musculus with 8 samples.

Results

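Age-associated clonal expansions are CD8 T cell populations in which the progeny of 1 cell, all bearing its T cell receptor, come to fill much of the memory compartment of an old animal. Each expansion therefore has its own receptor, its own antigen history and its own age, whereas a polyclonal memory sample averages over many clones. Memory CD8 T cells are kept alive by interleukin-7 and interleukin-15 and by the BCL2 family, and they differ among themselves in granzymes, NK-type receptors and inhibitory receptors. The question addressed here is how far expansions differ from each other, gene by gene, with polyclonal memory cells as the yardstick. The members are the 4 expansion arrays out of 8 arrays in all, chosen by their label. The other 4 arrays are polyclonal samples, which served only to show how much spread arises between mice without clonality.

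The donors were 4 female mice that each gave an expansion and a polyclonal sample from spleen and lymph nodes. At collection the animals were aged 20 months (mice 1 and 2) or 23 months (mice 3 and 4). The first 3 mice had the strain C57BL/10SnJ, the fourth was of strain B10.BR, and the labels give no transgene or treatment for any of them. All cells were sorted as positive for CD8 and for CD122, the beta chain shared by the receptors for interleukin-2 and interleukin-15, and negative for MHC class II. Expansions 1 to 4 were gated on V beta 3, V beta 8.1/8.2, V beta 8.3 and V beta 14, and the polyclonal partner from the same mouse was the cells without that chain. The sorts of the expansions, in order, were 91, 95, 96 and 98% pure, and those of the polyclonal samples 97, 75, 66 and 97%. By their own descriptions, the first expansion was high in integrin alpha4 (the alpha4-high subclass) and the other 3 were low (alpha4-low). The alpha4-high subclass is thus a single clone, and clone, receptor gate, mouse and, for expansion 4, strain cannot be told apart. Each clone has 1 array, so that the spread between clones also holds the technical error of amplification and hybridisation.

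RNA was amplified in 2 rounds and hybridised to Affymetrix Mouse Genome 430 2.0 arrays, and values are linear MAS5 intensities, here called signal. The 45101 probe sets include 64 controls, and 22518 of the others had a mean log2(signal + 5) above the median and were kept. For each kept probe set the standard deviation (SD) over the 4 expansions was set beside the SD over the 4 polyclonal samples. Median signal was 53.8, 55.4, 75.1 and 55.4 on expansions 1 to 4, and the median kept probe set of expansion 3 lay 0.26 log2 above the mean of the expansions. Background was read from 27 bacterial control probe sets (their 95th percentile) and was 33.7 to 61.9 on the 8 arrays. Of 9 CD8 T cell markers measured, 9 were above it on every array, among them Cd8a with 13073 to 30815 on the expansions. Their summed signal ran from 22056 on expansion 4 to 52902 on expansion 3, against 28430 to 45245 on the polyclonal samples. Cd4 was at 2.80 to 17.4 and the NK cell gene Ncr1 at 1.60 to 22.3 on the expansions, under background on all 4. Other marker lists varied more. The summed signal of 9 neutrophil and granulocyte markers ran from 1246 on expansion 3 to 10123 on expansion 4, and that of 8 B cell markers from 5037 on expansion 4 to 38294 on expansion 2. In the B cell list Ighm made most of the sum, with 8614, 34327, 8540 and 2013 on expansions 1 to 4, whereas Cd79a had 39.5, 74.8, 60.4 and 24.4. The sum over 16 macrophage and dendritic cell markers was 8043 to 20166 on the expansions and 4980 to 13910 on the polyclonal samples. Over 5 CD4 and regulatory T cell markers the expansions summed to 303 to 437 and the polyclonal samples to 238 to 567, and over 5 plasma cell markers to 1971 to 7977 against 1881 to 4867. For 7 NK cell markers the sums were 9029 to 27415 and 17752 to 47177, for 6 red cell and platelet markers 267 to 1700.1 and 467 to 1281, and for 7 stromal and endothelial markers 207 to 2572 and 213 to 557. The part of these cells in the spread between clones was not tested, and in a bulk sample fewer cells of a type and less RNA per cell cannot be told apart.

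Spread was somewhat larger among clones than among polyclonal samples, most clearly for bright genes. The median SD was 0.63 log2 units over the expansions and 0.55 over the polyclonal samples. The expansions had the larger SD for 13274 of 22518 probe sets, which is 58.9%. Their SD was more than 2 times the polyclonal SD for 4756 probe sets (21.1%), and the reverse held for 2658 (11.8%). With the probe sets in 4 equal bins by mean signal, the expansions had the larger SD for 69.8% of the brightest bin and 51.5% of the dimmest. Expansion 3 decides this excess: with pair 3 left out the share was 48.0%, and with pair 1 left out it was 56.9%. Without expansion 3 alone the share was 47.7%, and without expansion 1 alone it was 51.0%. These last shares set an SD over 3 arrays against one over 4. The SD over 3 tends to be smaller at equal spread, so they cannot be set beside 58.9%. When polyclonal samples 2 and 3, sorted at 75 and 66% purity, were left out, the share was 75.8%. An SD over the 2 polyclonal arrays left tends to be smaller than one over 4 at equal spread. This share therefore cannot be set beside 58.9%, and the part of sort purity in it was not tested. Each array's root-mean-square distance from the mean of the other 3 arrays of its group was 1.17, 0.831, 1.10 and 0.838 log2 units for expansions 1 to 4, and 1.005, 0.924, 0.779 and 0.804 for polyclonal samples 1 to 4. Expansions 1 and 3 lay farthest out and expansions 2 and 4 fell among the polyclonal arrays. The means were 0.984 ± 0.175 (SD, n = 4) and 0.878 ± 0.106 (SD, n = 4). The difference of 0.106 did not exceed the spread between arrays (exact permutation test, two-sided, p = 0.314, where the smallest possible is 0.0286). The 4 distances of a group share their arrays, so this p is only approximate.

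**Figure D1:**
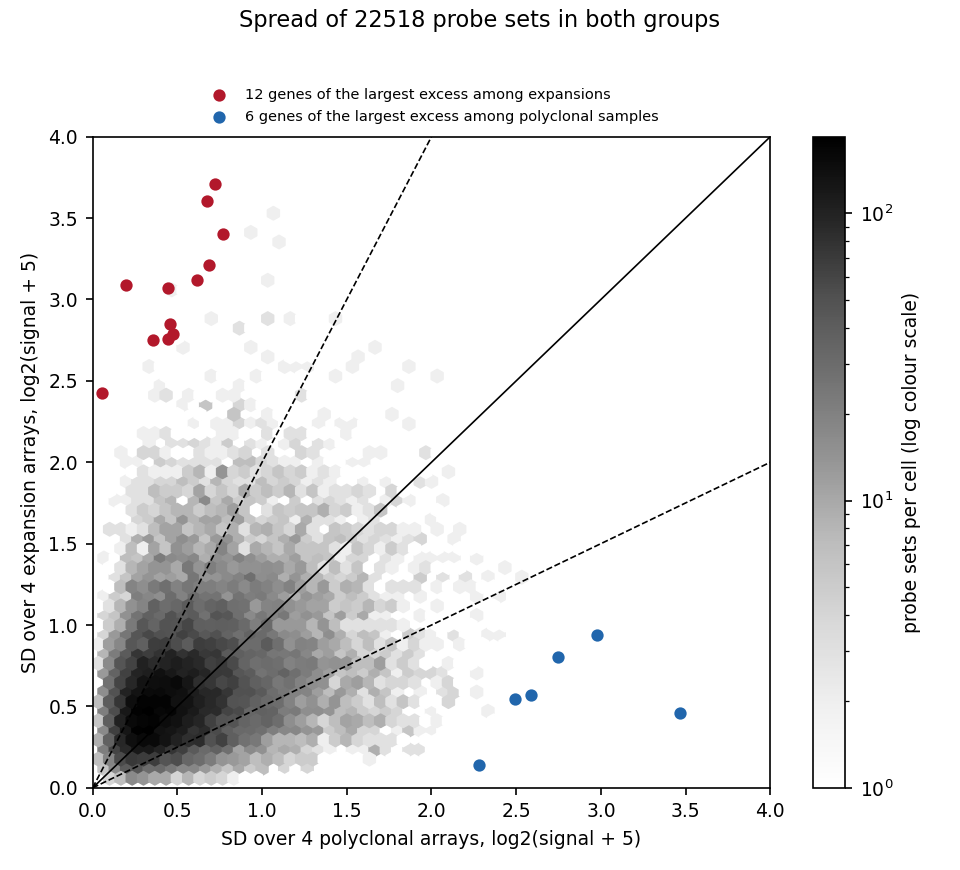
SD over the 4 polyclonal arrays (x axis) against SD over the 4 expansion arrays (y axis), both in log2(signal + 5), for 22518 probe sets shaded by density. The solid line marks equal SDs and the dashed lines a ratio of 2; 4756 probe sets lie above the upper dashed line and 2658 under the lower one. Red points are the 12 genes chosen for the largest excess among expansions and blue points the 6 for the largest excess among polyclonal samples.

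The pairs of clones were unequally alike. Expansions 2 and 4, both alpha4-low, differed by more than 1 log2 unit at 21.1% of kept probe sets. Expansions 1 and 3 did so at 41.7%, and the other 4 pairs of expansions at 29.7 to 36.5%. Among polyclonal samples the same share ran from 18.3% for samples 2 and 3 to 38.8% for samples 1 and 2. An expansion and its partner from the same mouse differed by that much at 21.6, 28.6, 25.9 and 16.9% for mice 1 to 4. All 4 of these shares lay under those of 5 of the 6 pairs of expansions. Expansion 3 was the array farthest from the mean of the expansions at 34.9% of probe sets, expansion 1 at 29.0%, expansion 4 at 18.7% and expansion 2 at 17.4%. Expansion 3 also had a lower 3′ to 5′ signal ratio for Gapdh, 2.78 against 5.33 to 6.56 on the other 3. By Actb its ratio was 47.6, within the 38.2 to 54.1 of the other 3. The array of expansion 4 has a scanner record that differs from the other 7. Whether these ratios or the scanner record bear on the spread was not tested.

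A test of spread singled out few genes. Absolute deviations from the group mean were compared between the groups with limma, and 11 of 22518 probe sets passed an adjusted p of 0.05, 7 wider among expansions (0.0311%) and 4 narrower (0.0178%). At an unadjusted p of 0.05 these counts were 1331 and 1049. None passed when any 1 pair or any 1 expansion was left out, or when mouse was entered as a block (smallest adjusted p in limma 0.110), and a variance-ratio F test per probe set passed 0 as wider and 1 as narrower (987 and 520 unadjusted). The values of the 7 are therefore given as a description of 4 clones. In each of the 7 a pair of clones was high and a pair low, with the polyclonal samples between them or near the high pair. The test of spread itself favours a pair against a pair, so this shared form is not a result about the clones.

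Fgl2, a fibrinogen-like protein with a secreted form that restrains T cell responses, had signals of 370, 17550, 390 and 10598 on expansions 1 to 4 and 2017, 3825, 2860 and 6403 on polyclonal samples 1 to 4. Expansions 2 and 4 stood above every polyclonal sample and expansions 1 and 3 below, and the highest clone was 47.4 times the lowest, against 3.18 times among polyclonal samples (adjusted p = 0.0157 in limma's test of spread). Lgals3, which encodes the sugar-binding galectin-3, showed the opposite order, with 1705, 93.8, 2957 and 106 on expansions 1 to 4 and 934, 523, 737 and 550 on polyclonal samples 1 to 4. Here expansions 1 and 3 were above all polyclonal samples and expansions 2 and 4 below them, a 31.5-fold range against 1.79-fold (limma adjusted p = 0.0157). Acpp, an acid phosphatase that can also turn AMP into adenosine at the cell surface, split the clones another way. Its signals were 104, 69.5, 5002 and 2336 on the expansions and 2540, 1915, 1490 and 1255 on the polyclonal samples. Expansions 1 and 2 were low, expansion 3 was above and expansion 4 among the polyclonal values, and the range was 72.0-fold against 2.02-fold (limma adjusted p = 0.0157).

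The promoters of these 3 genes are shown because they are the named genes of the test with the brightest signals and they split the 4 clones in different ways. Each runs from 250 bases before to 50 bases after the gene's start, 5′ to 3′ on the gene's strand, from RefSeq on GRCm38.p6. Capitals mark each GGAAA or its reverse complement TTTCC, the core of the sites that NFAT factors bind in T cells.
Fgl2, chr5:21372423-21372722, plus strand: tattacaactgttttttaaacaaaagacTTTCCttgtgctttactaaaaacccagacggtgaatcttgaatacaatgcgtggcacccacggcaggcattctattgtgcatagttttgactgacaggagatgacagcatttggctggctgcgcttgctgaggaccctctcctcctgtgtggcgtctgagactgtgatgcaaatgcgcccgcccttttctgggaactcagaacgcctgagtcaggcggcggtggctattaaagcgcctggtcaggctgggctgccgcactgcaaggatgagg
Lgals3, chr14:47373610-47373909, plus strand: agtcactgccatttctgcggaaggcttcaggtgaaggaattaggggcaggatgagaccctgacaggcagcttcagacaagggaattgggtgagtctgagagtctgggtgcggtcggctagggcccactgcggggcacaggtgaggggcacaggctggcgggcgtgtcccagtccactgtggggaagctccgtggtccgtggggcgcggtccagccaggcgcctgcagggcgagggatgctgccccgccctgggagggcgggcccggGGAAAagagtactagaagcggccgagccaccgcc
Acpp, chr9:104337673-104337972, minus strand: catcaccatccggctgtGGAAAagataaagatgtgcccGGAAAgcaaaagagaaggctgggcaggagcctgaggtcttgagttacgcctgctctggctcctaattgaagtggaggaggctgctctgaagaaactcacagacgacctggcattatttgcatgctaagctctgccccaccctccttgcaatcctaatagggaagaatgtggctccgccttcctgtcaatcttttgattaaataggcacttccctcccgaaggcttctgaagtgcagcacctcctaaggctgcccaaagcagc
The windows of Fgl2 and Lgals3 hold 1 match each and that of Acpp holds 2, on either strand. Such a match occurs in 61.3% of 32851 RefSeq promoter windows of this length. The motifs TGTGGT and CACGTG, searched on both strands, had 0 matches in the 3 windows and occur in 16.8% and 7.15% of all windows.

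Among the other probe sets that passed, Lmo4, a LIM-domain adaptor of transcription complexes, had 229, 6.65, 233 and 12.7 on the expansions and 93.7 to 180 on the polyclonal samples. It was high in the same clones as Lgals3. Urod, an enzyme of haem synthesis, had 5.65, 128, 138 and 3.46 on the expansions, with expansions 1 and 4 under background, and 99 to 166 on the polyclonal samples. Its further, brighter probe set had 1245, 1038, 3293 and 761, above background in every clone and high in expansion 3. A probe set shared by Snurf and Snrpn, from the imprinted region of the Prader-Willi syndrome genes, had 5.81, 274, 12.5 and 231 on the expansions and 108 to 242 on the polyclonal samples. Expansions 1 and 3 were under background there, while the other 2 Snurf and Snrpn probe sets kept all 4 clones above it, at 444 to 743 and at 109 to 373. The last has no gene in the annotation and had 16.2, 2335, 69.3 and 2051 on the expansions against 1332 to 2697. Of the 4 narrower probe sets the only named one was U2af1, a splicing factor subunit, with 306 to 379 on the expansions. Its signals of 211, 4477, 2333 and 215 on polyclonal samples 1 to 4 show the form that all 4 shared, high in polyclonal samples 2 and 3, the samples of low sort purity. Their part in it was not tested, and the test of spread itself favours a pair against a pair.

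The 12 genes with the largest excess of SD among expansions, taken among genes whose polyclonal values lay within 2 log2 units, include a granzyme, a G protein regulator and a growth factor receptor. Atp1b1, the beta subunit of the sodium-potassium pump, had 9987, 514, 15.3 and 190 on expansions 1 to 4 and 535, 1129, 656 and 334 on polyclonal samples 1 to 4. Expansion 1 was above every polyclonal sample, expansion 2 among them and expansions 3 and 4 below, with expansion 3 under background. The range over clones was at least 161-fold, and 3 of 4 further Atp1b1 probe sets also had the larger SD among expansions. Gzma, the granule protease granzyme A, had 5618, 162, 59.1 and 2826 on the expansions and 444, 325, 828 and 718 on the polyclonal samples. Expansions 1 and 4 were above and expansions 2 and 3 below all polyclonal values, with expansion 3 under background. Rgs1, which shortens signalling from chemokine receptors, had 13830, 9693, 178 and 1768 against 4384, 4785, 5400 and 2632. Expansions 1 and 2 were above and expansions 3 and 4 below all polyclonal samples, a 77.6-fold range against 2.05-fold. Bmpr1a, a receptor for bone morphogenetic proteins, had 61.1, 4370, 1248 and 3221 against 3104, 1581, 1773 and 2443. It was low in expansion 1, and all 4 further Bmpr1a probe sets had an SD among expansions more than 2 times the polyclonal one.

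Others split the clones in further ways, but each of them had 1 or more clones under background, where a signal gives only a bound. Those were expansions 1 and 2 for Trgv4, 1 and 3 for Snhg14 and Acsl6, and 3 for Gm10451. They were expansion 1 for Pik3ip1 and Cmah and expansions 2 to 4 for Clgn. Trgv4, a variable segment of the T cell receptor gamma chain, had 3.32, 5.55, 1806 and 89.4 on the expansions and 188, 234, 553 and 345 on the polyclonal samples, so that expansion 3 alone was above the polyclonal values. Snhg14, a noncoding host transcript of small nucleolar RNAs in the same imprinted region as Snrpn, had 41.2, 993, 1.97 and 713 against 229, 254, 103 and 381. Expansions 2 and 4 were above and expansions 1 and 3 below all polyclonal samples. The same order held in Fgl2, where the low clones were above background. Acsl6, a fatty acid activating enzyme, had 8.23, 1032, 34.0 and 233 against 163, 170, 81.0 and 121, with the same pair high. Gm10451, a predicted gene, had 1078, 1366, 11.8 and 66.0 against 411, 317, 373 and 433, which is high in expansions 1 and 2 as in Rgs1. The remaining 3 set expansion 1 apart. Pik3ip1, a brake on phosphoinositide 3-kinase, had 10.2, 331, 1200.1 and 517 against 681, 1108, 654 and 698, with expansion 3 above and the other clones below all polyclonal samples. Cmah, the enzyme that makes N-glycolylneuraminic acid, had 11.4, 333, 767 and 281 against 361, 374, 340 and 363, although 3 of its 5 further probe sets had the larger SD among expansions. The endoplasmic reticulum chaperone gene Clgn had 715 in expansion 1 and 2.05 to 4.44 in the alpha4-low clones, against 163, 72.7, 211 and 92.2. Without expansion 1 and its partner the order of the Clgn SDs turned.

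**Figure D2:**
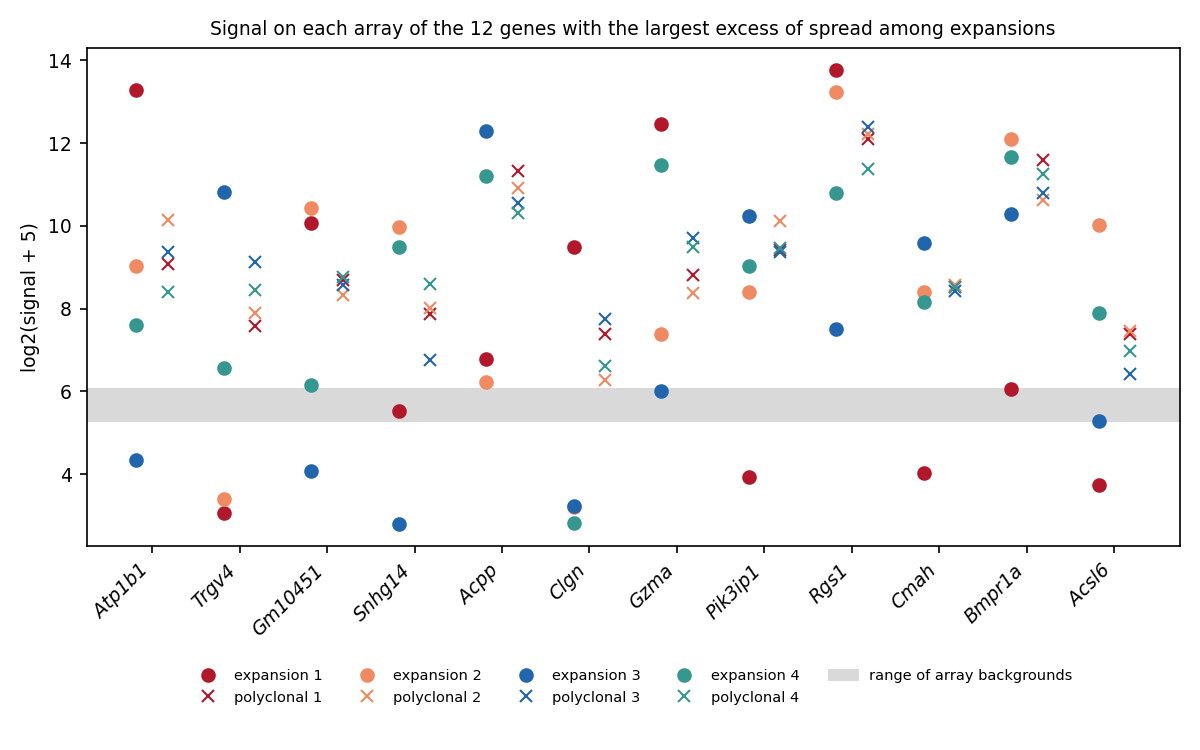
Signal as log2(signal + 5) (y axis) on each of the 8 arrays for 12 genes (x axis), circles for expansions and crosses for polyclonal samples in the colour of their mouse; the grey band is the range of array backgrounds. The polyclonal values of each gene lie within 2 log2 units, and the expansions lie on both sides of them for most genes, as for Gzma with 59.1 to 5618.

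Which clone stood apart was summarised over 1937 probe sets whose SD among expansions was at least 1 log2 unit and more than 2 times the polyclonal SD. The reverse rule gave 1223 probe sets for the polyclonal samples. Splitting the 4 expansions at their widest gap left 1 clone low in 61.0% of the 1937, 1 clone high in 22% and a pair against a pair in 16.9%. The polyclonal set had 59.4, 6.95 and 33.7%. Expansion 1 alone was low at 540 probe sets, expansion 3 at 277, expansion 2 at 213 and expansion 4 at 152. Expansion 3 alone was high at 209, expansion 1 at 161, expansion 2 at 37 and expansion 4 at 20. Of the pairs, expansions 3 and 4 were high together at 95 probe sets and expansions 2 and 4 at 60, while in the polyclonal set samples 2 and 3 were high together at 349. A lone low clone was often under background: expansion 1 was so at 394 of its 540 probe sets, expansion 3 at 143 of 277, expansion 2 at 181 of 213 and expansion 4 at 134 of 152. At the 540 probe sets low in expansion 1, the polyclonal partner from the same mouse was set beside the other polyclonal samples. It lay more than 1 log2 unit to the same side of them at 120 (22.2%). For the other sets of lone clones this share was between 2.17 and 18.9%. The choice of probe sets keeps these shares low. A partner as far out as its clone would raise the polyclonal SD and so tend to remove the probe set. The shares thus do not show whether a trait belonged to the clone or to the mouse.

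**Figure D3:**
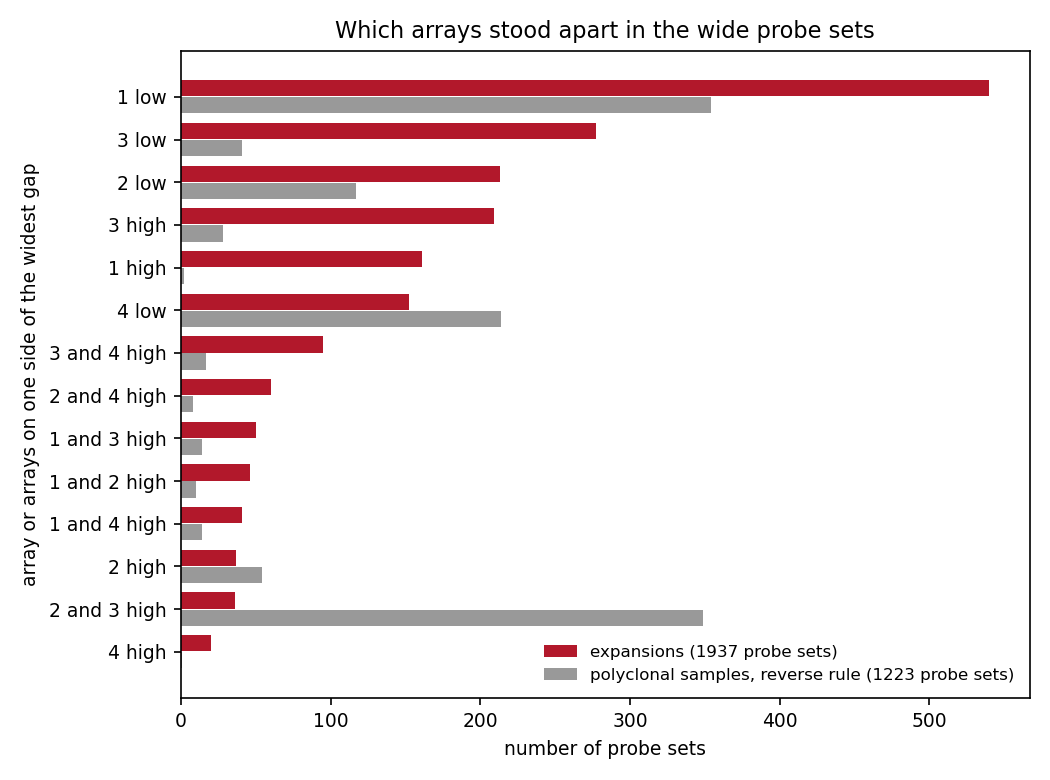
Number of probe sets (x axis) for each array or pair of arrays on one side of the widest gap (y axis), in red for the 1937 wide probe sets of the expansions and in grey for the 1223 of the polyclonal samples. Expansion 1 low is the longest red bar with 540, while the polyclonal bar for samples 2 and 3 high reaches 349.

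Each clone had genes that set it apart from the other 3 while the polyclonal samples lay within 1 log2 unit. These 3 genes in each direction were chosen for the gap and are a description. In expansion 1 the high genes were Art3, an ADP-ribosyltransferase, with 882 against 41.7 to 82.0 in the other clones, Glrx, a redox enzyme, with 2310 against 287 to 409, and the microtubule protein gene Map2 with 213 against 20.7 to 35.4. Its low genes were Pik3ip1, Bmpr1a and Lypd6b, the last with 21.2 against 587 to 1069.5. Expansion 2 was high in Nebl, a gene of actin-binding nebulette, with 918 against 47.0 to 92.0, in Plekha5 with 1566 against 38.2 to 411 and in Nol4l with 621 against 67.3 to 137. It was low in Dpp4, the surface peptidase CD26 that T cells carry, with 98.5 against 1029 to 4055, and under background for the relaxin-family gene Insl6 (2.52) and for Tkfc (3.04). Among the genes named by the rule or as list members whose SD was larger among expansions by at least 1 log2 unit, leaving out pair 1 turned the order of the SDs for Map2, Gzmk, Il18, Il18r1, Klrg1, Satb1, Itga4 (2 probe sets), Itgb3, S100a4, Hspa1a and Clgn. Leaving out pair 3 did the same for Rab3d, Cd274, Tnfsf11, Klre1 and Prdm1, leaving out pair 2 for Tkfc and leaving out pair 4 for Nt5c3b. Of those with a smaller excess, Glrx, Igtp, Oas3, Tox, Maf, Btla, Icos and Il7r, among others, turned without pair 1. Rps26, Rpl14, Rbl1, Il6st, Mcl1, S100a8 and S100a9 turned without pair 3, Carnmt1 and Gins2 without pair 4, and Ccl5, Cd79a and Klf3 with pair 3 or pair 4 left out.

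Expansion 3 stood apart in both directions. Grwd1, a ribosome assembly factor, had 4211 against 307 to 636 in the other clones and 431 to 698 in the polyclonal samples. Eif4ebp1, which restrains translation initiation until it is phosphorylated, had 568 against 22.3 to 60.1, although its 2 further probe sets did not have the larger SD among expansions. The vesicle traffic gene Rab3d had 1680 against 134 to 213. Expansion 3 was low in Cd274, which encodes the inhibitory ligand PD-L1, with 5.44 against 154 to 250 in the other clones and 189 to 314 in the polyclonal samples. Mir22hg (7.29 against 239 to 545) and the histamine-forming enzyme gene Hdc (8.06 against 121 to 285), were low there too. Expansion 4 had the smallest gaps. Tmlhe, an enzyme of carnitine synthesis, had 840 against 30.3 to 153, Carnmt1, a carnosine methyltransferase, had 8412 against 2100.5 to 3030, and Grin2b had 148 against 13.4 to 43.0, although its further probe set was lowest there (11.3 against 58.8 to 112). Its low genes were Txnip, a thioredoxin-binding regulator of glucose uptake, with 6.74 against 104 to 190, Nt5c3b with 2.98 and Srpk3 with 4.41. A far brighter Txnip probe set had 8923, 11495, 11643 and 3335 on the expansions and 10910.1, 17753, 12789 and 4813 on the polyclonal samples, so by it mouse 4 was lowest in both samples and the SDs were 0.85 and 0.80.

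Genes that control cell survival differed between clones throughout the list. Lists were measured on the brightest kept probe set of each gene. The share wider among expansions rose with signal, to 65.4% of probe sets above the 75th percentile and 69.8% of the brightest bin. A list share near or under these does not exceed that of bright probe sets. All 10 BCL2 family genes that passed the filter, of 19 listed, had the larger SD among expansions, beside 58.9% of all probe sets, and the median log2 ratio of the SDs was 1.44 beside 0.22. Bcl2, the survival factor itself, had 2470, 21706, 34356 and 26419 on expansions 1 to 4 and 9356, 24264, 24776 and 21452 on polyclonal samples 1 to 4. Expansion 1 was below every polyclonal sample and its partner was the lowest of those. Bcl2l11, which encodes the death-promoting BIM that BCL2 holds in check, had 4408, 23585, 11267 and 17926 against 17107, 12336, 8218 and 15649. Both genes were thus lowest in expansion 1. Of further probe sets, 3 of 4 for Bcl2 and 3 of 3 for Bcl2l11 were wider among expansions. Bcl2l1, the gene of the survival protein BCL-XL, had 140, 309, 860 and 215 against 173, 318, 419 and 204, highest in expansion 3. Pmaip1, the death-promoting NOXA, had 886, 1474, 282 and 1344 against 606 to 1027 and was lowest in that same clone. Mcl1, a survival factor that was bright on every array, ranged 1.85-fold over the clones and 1.25-fold over polyclonal samples. Bid ranged 2.60-fold and Bad 3.71-fold, while Bcl2l2, Bmf and Bik were dim, with 1 or more clones under background.

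Cytotoxic granule genes were bright but uneven. Of 13 measured, 8 had the larger SD among expansions (61.5%), 7 of them with a ratio over 2, while 3 had a polyclonal SD more than 2 times that of the expansions. Gzmk, granzyme K, had 22479, 108, 213 and 226 on expansions 1 to 4 and 4187, 3444, 11515 and 1906 on polyclonal samples 1 to 4. Expansion 1 was above and the alpha4-low clones were all below the polyclonal samples, and among those 3 clones the SD was 0.58 against 1.32 in their polyclonal counterparts. Gzmb, granzyme B, had 4796, 542, 3634 and 1129 against 907, 705, 1491 and 2222. It was high in expansions 1 and 3, which differ from the pair high in Gzma. Fasl, the death ligand, had 14640, 15036, 3884 and 7860 against 6635 to 9273, lowest in expansion 3. Serpinb9 and Serpinb6b, inhibitors that shield the killer cell, ranged 5.25-fold and 4.36-fold and were highest in expansion 1. Prf1, the pore-forming perforin, went the other way, with 740, 487, 433 and 299 on the expansions and 474, 2066, 753 and 273 on the polyclonal samples.

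Inhibitory receptors were wider among expansions for 10 of 11 genes (90.9%), with a median log2 SD ratio of 0.99. Ctla4, a brake on costimulation, had 4214, 109, 10.4 and 82.1 on the expansions and 932, 748, 2134 and 454 on the polyclonal samples. Pdcd1, the gene of PD-1, had 673, 7.05, 3.11 and 43.7 against 176, 148, 415 and 177, and Havcr2, the gene of TIM-3, had 612, 10.1, 87.3 and 24.7 against 97.0, 122, 273 and 167. All 3 were highest in expansion 1 and below every polyclonal sample in the alpha4-low clones. The ranges over clones were at least 68.1-fold, 15.4-fold and 18.2-fold. Btla ran in the opposite order, with 2725 in expansion 1 and 8065 to 15208 in the alpha4-low clones, against 6519 to 12727. Entpd1, which encodes the ATP-splitting CD39, had 118, 716, 234 and 311 against 259 to 391, highest in expansion 2. Its 2 further probe sets had the smaller SD among expansions, 0.13 against 0.23 and 0.31 against 0.55. Their highest clones were expansions 4 and 3. Within the alpha4-low clones 6 of the 11 genes were wider than in polyclonal samples 2 to 4.

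NK-type receptors split the clones in several ways. Of 17 measured, 10 had the larger SD among expansions (58.8%, as in all probe sets) and 7 had a ratio over 2. Klrc1, the gene of NKG2A, had 1445, 312, 1045 and 4488 on the expansions and 3548, 3972, 2780 and 6891 on the polyclonal samples. Only expansion 4 was within the polyclonal range and the other 3 were below it. Klre1 had 5609, 1597, 96.4 and 3592 against 2589, 6368, 1449 and 10649, lowest in expansion 3. The late-differentiation marker Klrg1 had 3668 in expansion 1 and 142 to 192 in the others, against 359 to 1421. Clec2i, a ligand of NK receptors, had 682, 1122, 3226 and 1807 against 1366 to 1589, the widest ratio of the list at 9.04. The Ly49 genes Klra7 and Klra8 were wider among polyclonal samples. Klra8 had 49.1, 292, 198 and 1103 on the expansions and 441, 15079, 665 and 21818 on the polyclonal samples.

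Cytokine receptors were wider among expansions for 20 of 23 genes (87.0%), 11 of them with a ratio over 2, and the median log2 SD ratio was 0.89. Il18r1, the interleukin-18 receptor, had 3504, 47644, 46672 and 42422 on expansions 1 to 4 and 26651, 36010, 24252 and 30169 on polyclonal samples 1 to 4. Expansion 1 was below and the alpha4-low clones were above every polyclonal sample. The ligand gene Il18 went in the opposite direction, with 3804 in expansion 1 and 71.5 to 95.7 in the others, against 100.3 to 462. Il6ra had 123, 144, 2519 and 467 against 526, 1304, 479 and 575, and its signalling partner Il6st had 137, 366, 1097 and 201 against 550, 1291, 776 and 528. Both subunits of the interleukin-6 receptor were thus highest in expansion 3, and the other clones were below every polyclonal sample. Il15ra had 720, 437, 147 and 301 against 321 to 528, and Ifnar2 had 1048, 1098, 3372 and 2585 against 1388 to 1870. The interleukin-7 receptor gene Il7r and the gene Il2rb varied less than these. Il7r had 29918 to 50018 on the expansions, a 1.67-fold range against 1.33-fold. Il2rb, which encodes the CD122 used in the sort, ranged 1.25-fold over the clones and 2.49-fold over the polyclonal samples.

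**Figure D4:**
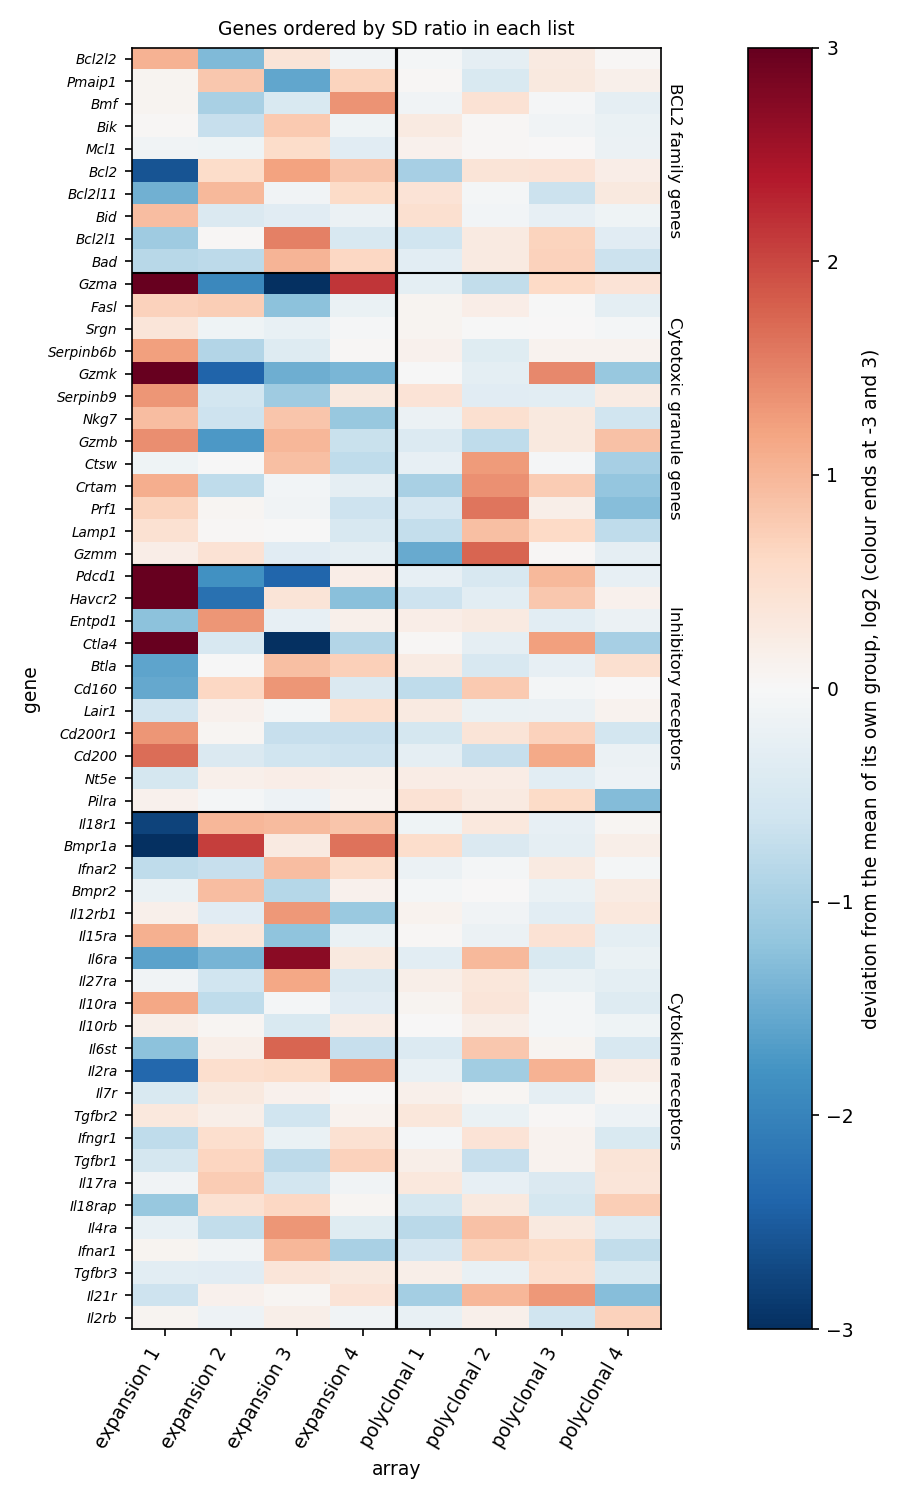
Deviation of each array from the mean of its own group, in log2 units (colour, ending at -3 and 3), for the measured genes of 4 lists (rows, ordered by SD ratio within a list) on 4 expansions and 4 polyclonal samples (columns). Expansion 1 carries the strongest colours, as for Gzmk with 22479 against 108 to 226 in the other clones, and most polyclonal columns are pale.

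Homing and adhesion genes included the receptor that defines the subclass. Itga4, the integrin alpha4 chain, had 11824, 197, 435 and 120 on expansions 1 to 4 and 3182, 2676, 8221 and 1559 on polyclonal samples 1 to 4 by its brightest probe set, which is the label's own split. Of 24 genes in the list, 18 had the larger SD among expansions (75.0%) and 9 had a ratio over 2. Itgb1, the beta1 chain that pairs with alpha4, had 1216, 5858, 3307 and 9171 against 4726, 4184, 4681 and 5772, lowest in the clone with the highest Itga4. Cxcr6 had 443, 5690, 1265 and 4364 against 2764 to 4138, high in expansions 2 and 4. Cx3cr1, the fractalkine receptor of effector memory cells, had 4284, 2513, 59.2 and 239 against 745, 841, 1009 and 153. Expansions 1 and 2 were above all polyclonal samples, and the range was at least 69.2-fold. Ccr2 had 5332, 1929, 1042 and 5230 against 1494 to 2578, high in expansions 1 and 4. No 2 of these 3 chemokine receptors picked out the same pair of clones.

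The effector cytokine Ifng had 5875, 15926, 701 and 558 on expansions 1 to 4 and 3487, 10780, 3202 and 3395 on polyclonal samples 1 to 4. Expansion 2 was highest and expansions 3 and 4 were below all polyclonal samples, and in mouse 2 the polyclonal sample was also the highest of its group. In its list of 15 cytokine and chemokine genes 11 were wider among expansions. The chemokine gene Ccl5 was bright on all arrays and ranged 2.16-fold over the clones and 1.77-fold over polyclonal samples. Ltb, by contrast, ranged 4.05-fold over the clones and 95.0-fold over the polyclonal samples, where samples 2 and 3 had 6060 and 1711.

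Transcription factors of effector and memory cells were wider among expansions for 24 of 32 genes (75.0%), and here pair 1 made the difference, since the median log2 SD ratio of 0.37 became -0.00157 without pair 1. Satb1, a chromatin organiser, had 1360.5, 27314, 24261 and 29585 on the expansions and 21208, 19771, 12576 and 19623 on the polyclonal samples, and all 4 further Satb1 probe sets were wider among expansions. Without pair 1 all 5 had the larger SD among polyclonal samples. Tox had 7563, 458, 176 and 794 against 1967, 684, 5833 and 1013, and Maf had 4422, 122, 148 and 238 against 1421, 450.3, 4395 and 658. Both were highest in expansion 1 and polyclonal sample 3. Other factors set expansion 3 apart. Prdm1, the gene of the effector regulator BLIMP-1, had 1408, 1318, 174 and 961 against 535 to 910. Foxp1, a keeper of quiescence, had 1060, 3269, 13213 and 2117 against 2156 to 3785 by its brightest probe set. Of its 7 further probe sets 4 were wider among expansions, and they did not all set expansion 3 apart. One had 1137, 3484, 1916 and 1897 on expansions 1 to 4, highest in expansion 2. Another had 201, 1698, 3503 and 2808, highest in expansion 3 and lowest in expansion 1. The memory regulator Eomes had 21207, 12436, 8505 and 15581 against 11801 to 17451, a 2.49-fold range. Hopx and Klf3, both bright, differed by 1.68-fold and 1.74-fold over the clones.

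Signalling genes behind the T cell receptor were wider among expansions for 23 of 30 (76.7%). Dusp6, a phosphatase that limits ERK, had 758, 6015, 235 and 1674 on the expansions and 1928, 2134, 998 and 1538 on the polyclonal samples, with expansion 2 above and expansions 1 and 3 below all polyclonal values. Lcp2, the adaptor SLP-76, had 3699, 3614, 955 and 1721 against 2383 to 3379, and Sla had 23162, 34188, 9718 and 27221 against 20266 to 29274. Both were lowest in expansion 3. The receptor subunit gene Cd247 had 983, 345, 1219.8 and 302 against 776 to 1153, and Cd3d had 6643, 3278, 6351 and 3211 against 5490 to 7379. By these probe sets, expansions 2 and 4 lay below every polyclonal sample. A further, dimmer Cd247 probe set had 173, 95.8, 233 and 251 on the expansions against 156 to 307, so there expansion 4 was the highest clone. Expansions 2 and 4 also had the lower sums of CD8 T cell markers, 29092 and 22056, and the part of this in the list's spread was not tested. Of the costimulatory receptors 12 of 18 were wider among expansions (66.7%). Slamf6 had 4054, 62.4, 237 and 363 against 376 to 1038, and Icos had 22455, 7520, 5403 and 5724 against 6373 to 11882, both highest in expansion 1.

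The S100, annexin and galectin genes, which accompany effector differentiation, were wider among expansions for 15 of 19 (78.9%). S100a4 had 17320, 326, 413 and 224 on the expansions and 1744, 2958, 5928 and 568 on the polyclonal samples, highest in expansion 1, and without pair 1 the order of its SDs turned. Anxa2 had 5709, 509, 2366 and 952 against 1341 to 2318, and Crip1 had 9439, 1704, 6223 and 728 against 1879 to 3953. By these probe sets both follow Lgals3, high in expansions 1 and 3. A further, dimmer Anxa2 probe set had 112, 151, 21.5 and 75.0 on expansions 1 to 4, highest in expansion 2 and under background in expansion 3. Its SD was 1.12 over the expansions and 1.20 over the polyclonal samples. Vim, the intermediate filament vimentin, had 10512, 20645, 63973 and 22202 against 13937 to 22451. S100a8 and S100a9, which neutrophils make in quantity, were lowest in expansion 3, with 475 and 32.3, and highest in expansion 4, with 6177 and 971, as was the sum of the neutrophil markers, and their part in the spread of this list was not tested.

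Genes of general metabolism differed less in size. Oxidative phosphorylation genes were wider among expansions for 47 of 62 (75.8%), with a median SD of 0.56 against 0.35. Their median deviation from the mean of the clones was 0.23, -0.10, 0.43 and -0.36 log2 for expansions 1 to 4, where all kept probe sets had 0.26 for expansion 3. Ndufb8, a subunit of complex I, had 7354, 3874, 18327 and 4261 against 4553 to 7666, highest in expansion 3, while Ndufs1 of the same complex had 6119, 7097, 2094 and 5051 against 4892 to 6465, lowest there. Proteasome genes were wider for 20 of 31 (64.5%), and cytosolic ribosomal protein genes for 21 of 43 (48.8%), fewer than among all probe sets. In the ribosomal list the median deviation was 0.55 log2 in expansion 3 and -0.14, -0.20 and -0.20 in expansions 1, 2 and 4. Rps26 had 8796, 6517, 24911 and 6623 against 7202 to 10980, and Rpl14 had 2415, 2117, 6554 and 2451 against 1779 to 2481. Interferon response genes were wider for 17 of 25 (68.0%), among them the GTPase gene Igtp with 1541 in expansion 1 and 3643 to 4090 in the others, against 3846 to 4408.

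**Figure D5:**
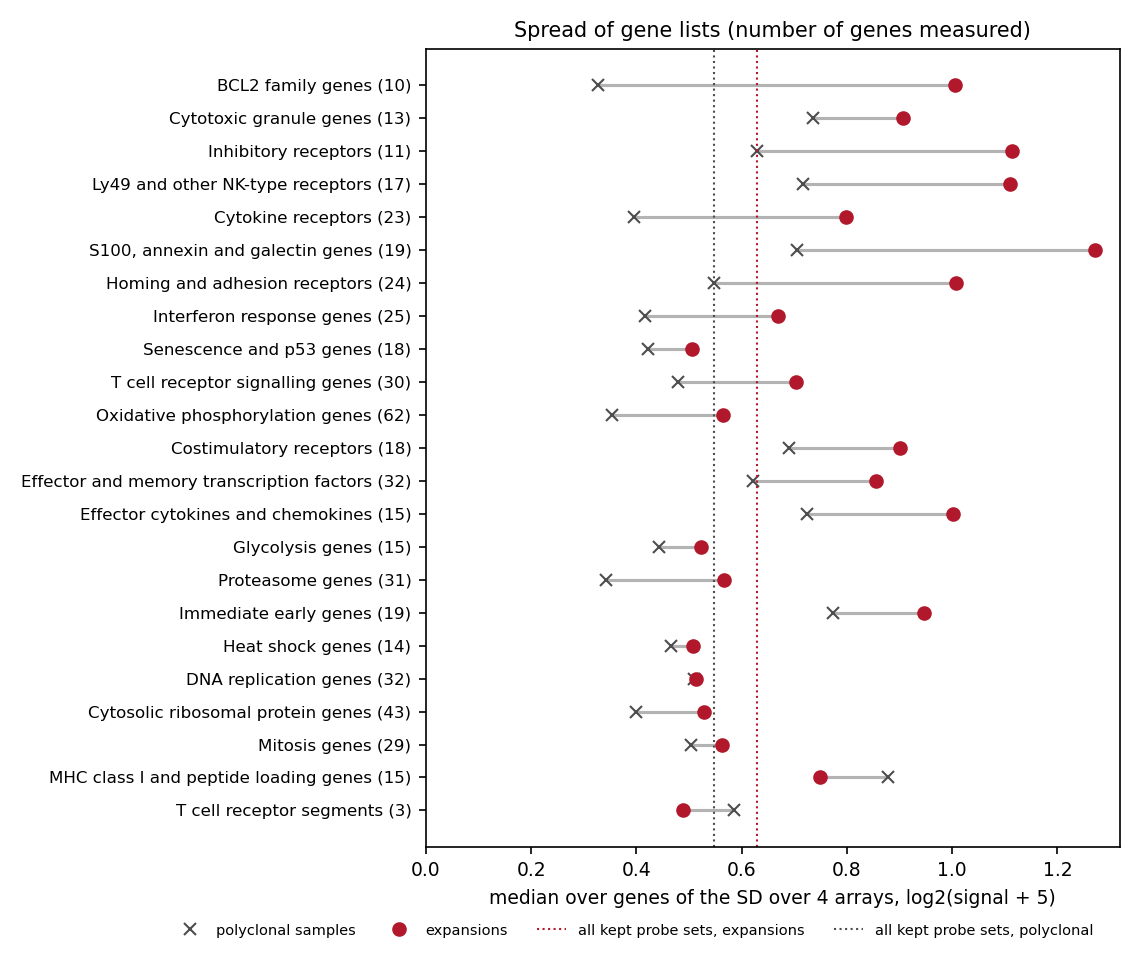
Median over the genes of each list of the SD over 4 arrays, in log2(signal + 5) (x axis), for 23 lists ordered by their median log2 SD ratio (y axis, with the number of genes measured), red circles for expansions and crosses for polyclonal samples; dotted lines give the medians of all kept probe sets, 0.63 and 0.55. The BCL2 family has the widest distance to its left, and MHC class I genes and T cell receptor segments have the cross to the right of the circle.

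Several functions stood close to all probe sets (58.9%) or under them. Of DNA replication genes 18 of 32 had the larger SD among expansions (56.2%), of mitosis genes 12 of 29 (41.4%), of immediate early genes 11 of 19 (57.9%), of heat shock genes 8 of 14 (57.1%) and of glycolysis genes 9 of 15 (60%). Senescence and p53 genes had 12 of 18 (66.7%), which is under the 69.8% of the brightest bin of probe sets. MHC class I and peptide loading genes were wider among expansions for 5 of 15 (33.3%). The class I gene H2-K1 had 12602, 8286, 5109 and 622 on the expansions and 7148, 19974, 11331 and 932 on the polyclonal samples, low in both samples of mouse 4, the only B10.BR animal. H2-D1 had 3459, 1338, 1969 and 152 against 2048, 3714, 2642 and 147 and was low in the same 2 samples. The polyclonal sample of mouse 4 was low too, so strain and mouse cannot be told apart for these genes. Tapbp, the tapasin of the peptide loading complex, had 8445, 10141, 13959 and 2661 against 4145 to 7245 and separated expansion 4 further than it did polyclonal sample 4. T cell receptor segments were measured for 3 of 32 listed, which is too few for the gates. Trbv13-2, the segment of V beta 8.2, had 144, 67.3, 63.7 and 9.79 on expansions 1 to 4 and 64.6, 119, 123 and 117 on the polyclonal samples, so its highest value was not in expansion 2, the clone gated on V beta 8.1/8.2.

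The 3 alpha4-low clones can be compared with each other and with polyclonal samples 2 to 4 of the same mice. They had the larger SD at 12810 of 22518 probe sets (56.9%). In limma's test of spread 0 probe sets passed the threshold (0%), with 1835 wider and 1068 narrower at an unadjusted p of 0.05 and a smallest adjusted p of 0.330. With mouse as a block 0 passed (1594 and 965 unadjusted), and the variance-ratio F test also passed 0 (738 and 441). The BCL2 family was again wider throughout, for 10 of 10 genes with a median log2 SD ratio of 1.64 beside 0.20 in all probe sets. Cytokine receptors were wider for 14 of 23 and homing receptors for 12 of 24. The widest gene within this subclass was Cd163l1, a scavenger receptor known from gamma delta T cells. It had 46.9, 15.3, 8634 and 17245 on expansions 1 to 4 and 130, 9455, 6021 and 11883 on polyclonal samples 1 to 4. Expansion 2 was under background while its partner was bright, so the SD was 5.35 among the alpha4-low clones and 0.50 among their partners. Its 1 further probe set had 17.5, 69.4, 263 and 829.6 on the expansions, with an SD of 2.26 against 2.51 over all 4 arrays and of 1.75 against 0.28 within the alpha4-low pairs. Drc1, a ciliary dynein regulator, was high in expansion 3 with 1087 against 20.0 and 6.86 in expansions 2 and 4. Plcxd1, with 1081 against 75.9 and 3.57 in expansions 3 and 4, and Klhl4, with 1649 against 1.25 and 46.8, were high in expansion 2.

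Of 1223 probe sets wide among polyclonal samples, 354 had sample 1 alone low, 349 had samples 2 and 3 high, 214 had sample 4 alone low and 117 had sample 2 alone low. The 6 genes with the largest excess were Spag7, U2af1, Ltb, Tcf25, Eva1b and Mrpl2, and all 6 were highest in polyclonal sample 2 and next highest in polyclonal sample 3. Spag7 had 138, 114, 98.3 and 62.4 on the expansions and 40.5, 1467, 874 and 4.60 on the polyclonal samples. Mrpl2, of the mitochondrial ribosome, had 179, 338, 407 and 118 against 126, 1715, 565 and 16.3. The clones thus lay within 3.44-fold of each other for Mrpl2, while polyclonal sample 2 was high and polyclonal sample 4 low. Of 23 lists, 14 had a median log2 SD ratio of at least 0.3 with all arrays and 9 without pair 3. Without polyclonal samples 2 and 3, those sorted at 75 and 66% purity, 22 did. That last count sets an SD over 4 arrays against one over 2, which tends to be smaller at equal spread. It cannot be compared with the other counts.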

How the data were processed

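The deposited table holds 1 linear intensity per probe set and array, made by the authors with MAS5 per the submitters' processing notes (version not given in the sources used here). All arrays share a 2% trimmed mean of 500, and no scaling was added. Such scaling hides changes in total RNA, and double amplification, per the labels' protocols, favours 3′ ends. Scanner records deposited with the arrays hold other settings and were read only for batches.

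Values were taken as log2(intensity + 5). Spread was tested with limma 3.58.1 in R 4.3.3 on absolute deviations from the group mean, scaled for n = 4, with eBayes, an intensity trend and Benjamini-Hochberg adjustment at 0.05. On simulated data without a difference more probe sets passed than the threshold allows, so calls are read only as a description. Labels pair the samples by mouse, and deviations from the group means correlated within pairs at 0.374, 0.0771, 0.214 and 0.338. A fold over clones is the highest signal over the lowest, or over background ("at least") where the lowest is under it. Gene names came from the platform annotation, where 18437 kept probe sets have 1 gene, 573 several and 3508 none, and of those with several only the Snurf and Snrpn probe sets are named.

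Named genes were the 12 with the largest SD excess (polyclonal values within 2 log2 units), 3 per clone and direction (within 1 log2 unit), 6 of the reverse excess, up to 4 per list, every probe set that passed, Itga4, receptor segments and 4 within the alpha4-low clones; further list members are given with their list. The rule, the 23 function lists and the 9 marker lists were chosen with earlier results of these data known. Alternatives covered pseudocount, filter, scaling, trend, block and omitted arrays.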

Additional observations from a re-analysis of the deposited data

Results flagged for a closer look

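Of 288 groups of 4 values examined for the named probe sets, 31 had 1 array far from the other 3 by Dixon's criterion. These were 19 among expansions and 12 among polyclonal samples. Chance meets the criterion in about 1 in 20 groups that were not chosen for their spread. Most of the named probe sets were chosen for a large SD among expansions beside the polyclonal SD. The count and its split between the groups therefore follow in part from that choice and are only a description. Of the 31, 6 come from genes chosen for such a gap, so that a flag there adds nothing: Glrx with 2310 and Lypd6b with 21.2 in expansion 1, Tkfc with 3.04 in expansion 2, Cd274 with 5.44 in expansion 3, and Nt5c3b with 2.98 and Srpk3 with 4.41 in expansion 4.

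Expansion 1 gave more of the others than any other array. It was high for Clgn (715), Gzmk (22479), Il18 (3804), Klrg1 (3668), S100a4 (17320) and a second Itga4 probe set (8341), and low for Satb1 (1360.5), Il18r1 (3504), Igtp (1541) and the antiviral gene Oas3 (25.1). In Il18r1, Satb1 and Igtp the other 3 clones lay close together, at 42422 to 47644, 24261 to 29585 and 3643 to 4090. Expansion 3 was low for the cell cycle repressor gene Rbl1 (3149) and high for Rpl14 (6554). Expansion 4 was low for Gins2 (57.8), a part of the replicative helicase.

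The polyclonal arrays were flagged for Pik3ip1 (1108), Ifng (10780) and Psmb2 (1290) in sample 2, for Pdcd1 (415), Satb1 (12576), Egr2 (1643) and Mcm7 (2764) in sample 3, for Bcl2 (9356), Trbv13-2 (64.6), Cd163l1 (129.8) and a probe set without a gene name (1332) in sample 1, and for Cx3cr1 (153) in sample 4. In mouse 1 Bcl2, Cd163l1 and that probe set were low in the polyclonal sample and low in the expansion as well, with 2470, 46.9 and 16.2. In mouse 2 Ifng was the highest of its group in both samples.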

How the results depend on the processing

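The 11 probe sets that passed limma's test of spread became 18 with a pseudocount of 20, 18 above the 75th percentile of signal, 17 without the intensity trend and 22 with values under background set to it (an alternative added after the data were seen). There were 0 to 0 when any pair or any 1 expansion was left out, 0 with the replicate block, and 1 in the variance-ratio F test, also added later. Within the alpha4-low clones 0 passed under every setting run; leaving out a further pair there was not run, because with 2 arrays a group the deviations are equal. The share of probe sets wider among expansions was 48.0 to 63.7% with 1 pair left out, 65.4% above the 75th percentile and 75.8% without polyclonal samples 2 and 3 (added later). Of 23 lists, 14 had a median log2 SD ratio of at least 0.3, 9 did without pair 3 and 22 without polyclonal samples 2 and 3. With 1 pair left out that ratio ran from -0.00157 (without pair 1) to 0.898 for the transcription factors and from -1.15 to 0.064 (without pair 2) for the receptor segments, which had 2.55 without those 2 samples. All values without polyclonal samples 2 and 3 set an SD over 4 arrays against one over 2, which tends to be smaller at equal spread. They cannot be compared with the other settings. Among named probe sets with an SD larger among expansions by at least 1 log2 unit, the difference turned sign without pair 1 for Clgn (-0.54 to 3.18 over the 4 omissions), Map2 (-0.059 to 1.30), Gzmk (-0.75 to 3.56), Il18 (-0.97 to 2.59), Klrg1 (-0.33 to 1.69), Satb1 (-0.23 to 2.47), Itga4 (-0.31 to 3.07 and -1.07 to 2.89), Itgb3 (-0.89 to 2.20), Il18r1 (-0.20 to 1.96), S100a4 (-1.29 to 2.32) and Hspa1a (-0.11 to 1.38). It did so without pair 2 for Tkfc (-0.13 to 2.00), without pair 3 for Rab3d (-0.031 to 1.65), Cd274 (-0.000779 to 2.28), Tnfsf11 (-0.25 to 1.54), Klre1 (-0.11 to 1.89) and Prdm1 (-0.089 to 1.37), and without pair 4 for Nt5c3b (-0.076 to 1.73). Smaller differences turned without pair 1 for Glrx, Igtp and Oas3, without pair 3 for Rbl1, Rps26 and Rpl14 and without pair 4 for Carnmt1 and Gins2, among others. The scaling alternatives turned none of those listed here. With 1 array per clone, the spread between clones cannot be told apart from technical error, and under background a signal gives only a bound.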

Other observations

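A list of 44 imprinted genes, added after the values of Snhg14 and Snrpn had been seen, was no wider among expansions than other genes: 10 of 17 measured genes had the larger SD (58.8%, beside 58.9% of all probe sets), with a median log2 SD ratio of 0.24. Within it Kcnq1ot1, a noncoding RNA read from the paternal chromosome, had 59.4, 35.9, 1208 and 829 on expansions 1 to 4 and 81.2, 223, 745 and 249 on polyclonal samples 1 to 4 by one probe set, with expansions 3 and 4 above every polyclonal sample. The 3 further Kcnq1ot1 probe sets had SDs of 0.66, 0.87 and 1.19 over the expansions and 0.76, 1.05 and 0.94 over the polyclonal samples, so only 1 of them was wider among clones.

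The second Snhg14 probe set had 0.632, 210, 38.9 and 198 on expansions 1 to 4, high in expansions 2 and 4 as the first was, and 41.6, 161, 2.35 and 122 on polyclonal samples 1 to 4. Its SD was 2.47 over the expansions and 2.04 over the polyclonal samples, so that the excess seen with the first probe set is smaller here.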
